A study of Homo sapiens with 8 samples.

Results

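The genes described here lie on the distal long arm of chromosome 17, from a transcript start of 41 Mb to the end of the chromosome (hg19). They were chosen by position in the deposited table with values of the BRCA1-null vs. BRCA1+ comparison already known. BRCA1, 7 other genes named one by one and genes whose symbols begin with any of 13 prefixes (integrin, HOXB, collagen, WNT, potassium channel and similar families) were left out, which removed 54 of 634 genes. The remaining 580 members were drawn from 25369 genes in the table. Of these, 464 passed the filter on low counts and entered the fit, 75 had counts but did not pass, and 41 had 0 counts in every library.

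RNA-seq libraries were made from UWB1.289, an ovarian cancer cell line with a truncating BRCA1 mutation (BRCA1-null), and from UWB1.289 cells transduced with BRCA1 (BRCA1+). Both lines were kept for 24 h in DMSO (control) or in 0.5 μM entinostat, an inhibitor of class I histone deacetylases. Each of the 4 groups had 2 libraries, 8 in all, with 31900158 to 53549893 counts per library. Whether BRCA1+ is a single clone, and whether libraries came from separate cultures, is not given in the sources used here, so p-values measure only the spread between these libraries. BRCA1 itself stood at 92.4 to 133 CPM (read counts scaled to library depth) in the BRCA1+ libraries and at 17.6 to 22.4 CPM in the BRCA1-null libraries. Transcripts of the endogenous gene and of the transgene were not told apart in the table. The 10 epithelial and Müllerian markers summed to 14100 to 18500 CPM in all libraries, and DCN, LUM and HBB were at 0. Summed leukocyte markers were at 15.3 to 23.8 CPM in BRCA1+ and 23.5 to 37.5 CPM in BRCA1-null libraries, and summed fibroblast markers at 8.87 to 18.6 and 20.8 to 37.4 CPM; their part in the line differences was not tested.

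The distal long arm of chromosome 17 is gene-dense. BRCA1 lies near its proximal end beside NBR1, an autophagy receptor, and NBR2, a noncoding gene that starts head to head with BRCA1. Further out lie the HOXB cluster, genes for nucleoside diphosphate kinases, clathrin heavy chain and splicing factors, and many genes of lysosomes, signalling and the cytoskeleton. Genes that neighbour each other on a chromosome need share no function, so position and role were described separately.

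The position of the line difference was checked first. It was not spread evenly over the distal arm, nor centred on BRCA1. It was concentrated in 1 stretch that began 6.09 Mb beyond the start of BRCA1, at ZNF652, and ended 16.6 Mb beyond it, at VMP1 (chr17:47366568-57917952 in hg19, 10.6 Mb). Promoter windows of 3 genes are shown because they lie at the edges of this stretch: ZNF652 and PHB are the first well-expressed genes inside it, and TUBD1 is the first beyond it. These genes were picked after their values were seen. Sequences are the GRCh37 (hg19) bases upstream of each gene's deposited start, 5′ to 3′ on the gene's own strand, cut so that no annotated exon is included. Capitals mark a match to 1 of 3 motifs searched on both strands: the GC box (letters GGGCGG), the CAAT box (letters CCAAT) and the TATA box (letters TATAAA).
ZNF652, minus strand, chr17:47439880-47439999: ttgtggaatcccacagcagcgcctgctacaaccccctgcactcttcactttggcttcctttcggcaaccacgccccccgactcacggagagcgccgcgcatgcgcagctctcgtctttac
PHB, minus strand, chr17:47492268-47492387: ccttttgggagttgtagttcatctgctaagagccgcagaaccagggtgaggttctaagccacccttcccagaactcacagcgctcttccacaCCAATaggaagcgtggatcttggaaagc
TUBD1, minus strand, chr17:57970307-57970406: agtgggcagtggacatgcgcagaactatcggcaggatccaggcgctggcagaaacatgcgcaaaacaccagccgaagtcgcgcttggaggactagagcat

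The PHB window held 1 CCAAT box, and the other windows held no match in these letters. The TUBD1 window is the whole interval of 100 bases to RPS6KB1, which starts on the opposite strand. Over the 250 bases upstream of each gene, CCAAT was found for 39.1% of 87 tested genes of the raised stretch, 34.2% of the other 377 tested members and 32.5% of 25077 genes in the table. GGGCGG was found for 51.7%, 66.0% and 45.0%, and TATAAA for 6.9%, 5.31% and 10.1%. These shares describe letters only.

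Seen gene by gene along the chromosome, the BRCA1-null vs. BRCA1+ difference in DMSO was divided at 2 change points (the plot of line differences along chromosome 17). They were placed where they left the smallest summed absolute deviation from segment medians, over the 286 tested members whose log2 CPM averaged 3 or more, here called well expressed. The number of change points was set at 2 beforehand, and each segment had to hold at least 10 genes. Before ZNF652, the 56 well-expressed members had a median log2 difference of −0.03, with 13 higher and 14 lower calls. Inside the stretch, the 55 well-expressed members had a median of 0.56 (1.47-fold), 54 of 55 were above 0, 49 were called higher and 0 lower. Beyond VMP1, the 175 well-expressed members had a median of 0.03, with 40 called higher and 28 lower. A gene was called where edgeR's quasi-likelihood test gave a Benjamini-Hochberg adjusted p under 0.05. Of all 17714 genes tested, 42.2% were called in DMSO, 21.1% as higher in BRCA1-null cells and 21.0% as lower, and the median of all was 0.01. Because the members and the edges were both chosen from this comparison, these counts are a description and support nothing by themselves.

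**Figure D1:**
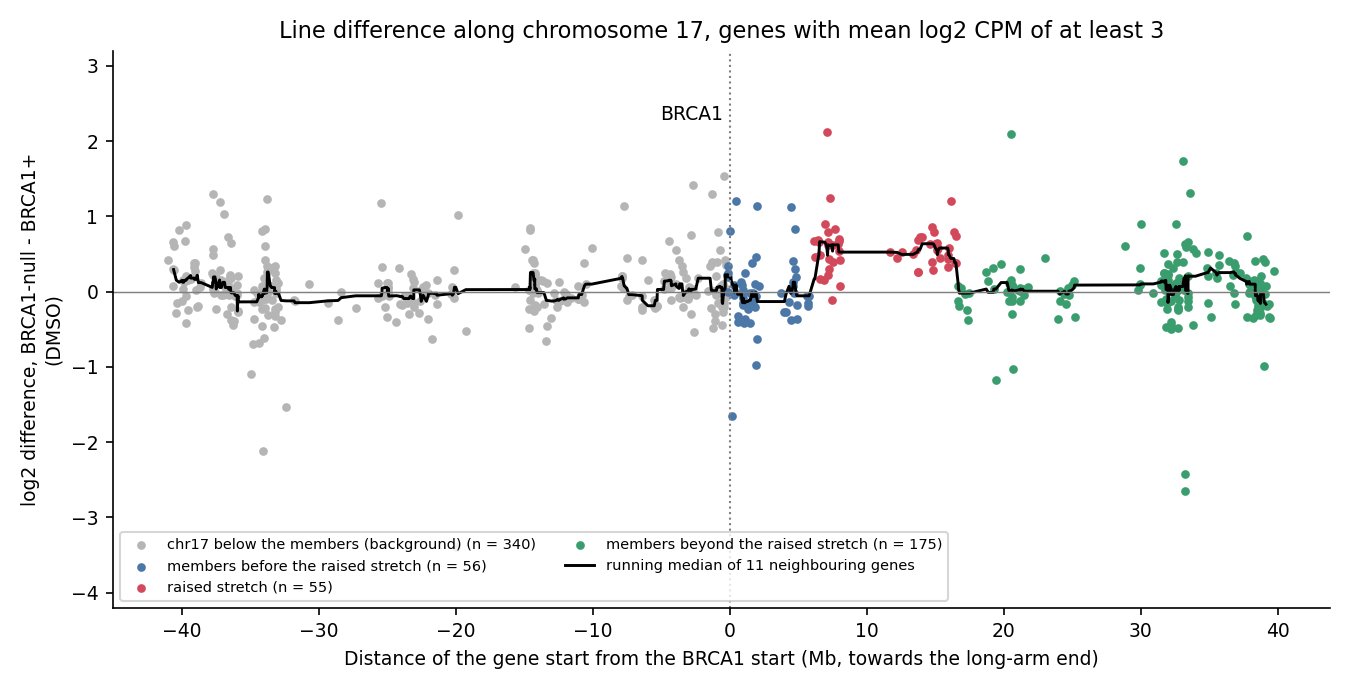
Each point is a well-expressed chromosome 17 gene. The x axis is the distance of its start from the BRCA1 start (Mb), the y axis its log2 difference between BRCA1-null and BRCA1+ cells in DMSO, and the line the running median of 11 neighbouring genes. The running median stays near 0 over most of the chromosome and above 0.4 over most of the raised stretch, whose 55 genes have a median of 0.56.

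Counting every tested member, the median log2 difference in DMSO was 0.20 (1.15-fold), 311 of 464 were above 0, and 149 were called higher and 56 lower (44.2%). The 569 tested chromosome 17 genes of lower start had a median of 0.05, with 129 called higher and 61 lower. The 87 tested genes of the raised stretch had a median of 0.61 (1.52-fold), with 61 called higher and 1 lower. The 93 tested genes before it had a median of 0.07, with 20 higher and 17 lower, and the 284 beyond it a median of 0.11, with 68 higher and 38 lower. In windows of 5 Mb, the medians were 0.07 from 41 to 46 Mb, 0.54 from 46 to 51 Mb, 0.54 from 51 to 56 Mb and 0.44 from 56 to 61 Mb. They were 0.06, 0.13, 0.13 and 0.12 in the windows from there to 81 Mb. The last window, from 81 Mb, held only 2 tested members, with a median of 0.57 in DMSO and −0.02 in entinostat.

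Members of low expression had higher medians than well-expressed ones at each position. Before and beyond the stretch, tested members that averaged under 3 in log2 CPM had medians of 0.40 (n = 37) and 0.39 (n = 109), against −0.03 and 0.03 for the well-expressed members of the same positions. All tested genes of low expression also had a higher median (0.22, n = 7189) than well-expressed genes (−0.05, n = 10525). Inside the stretch the medians of low and well-expressed members were 0.71 (n = 32) and 0.56.

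The same edges were returned with squared deviations (values clipped at 2) and with the entinostat libraries. They were also returned with each of the 8 single pairs of a BRCA1-null and a BRCA1+ library of the same treatment. In those pairs the median inside the stretch was 0.52 to 0.56 in DMSO and 0.62 to 0.65 in entinostat. The median before it was −0.06 to 0.01 and the median beyond it −0.01 to 0.05. The squared deviations and the DMSO pairs reuse the DMSO values that placed the edges. Their agreement was thus largely fixed in advance and supports nothing by itself. In the 8 libraries, counts of the 87 tested genes made up 0.367% to 0.368% of all counts in the 4 BRCA1+ libraries and 0.537% to 0.558% in the 4 BRCA1-null libraries. The exact 95% interval of the highest BRCA1+ share ended at 0.3706%, and that of the lowest BRCA1-null share began at 0.535%, both for counting error only. Because the edges were placed on this same difference in DMSO, the separation was built in there, and the intervals test nothing. The 93 genes before the stretch made up 0.479% to 0.497% of counts in every library, with no separation of the lines. The libraries hold RNA alone, and DNA was not measured in them.

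**Figure D2:**
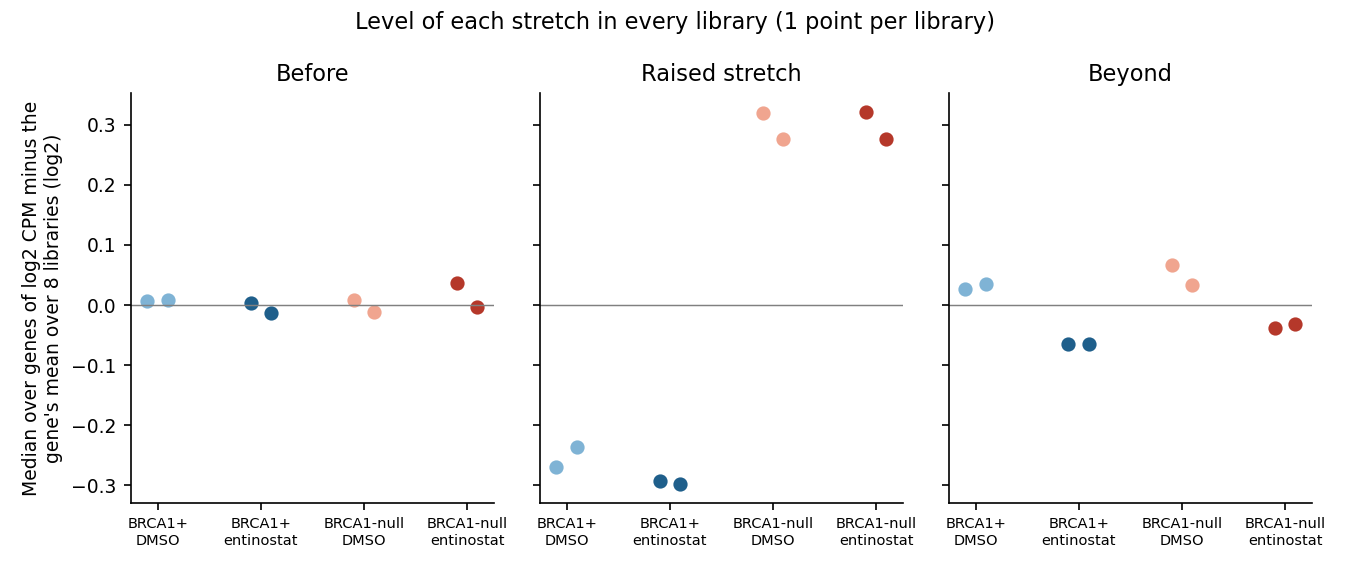
Each point is 1 library and gives the median, over well-expressed genes of a stretch, of log2 CPM minus the gene's mean over 8 libraries. Inside the raised stretch BRCA1+ libraries sit between −0.298 and −0.237 and BRCA1-null libraries between 0.276 and 0.321, while before and beyond it the lines are within 0.1 of 0.

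At the proximal edge the change fell between IGF2BP1 and ZNF652, which lie 233 kb apart. IGF2BP1, an RNA-binding protein of fetal tissues and tumours, was at 165 and 153 CPM in BRCA1+ DMSO, 151 and 145 in entinostat-treated BRCA1+, 152 and 153 in BRCA1-null DMSO, and 145 and 149 in BRCA1-null entinostat. The lines overlapped, and the log2 difference in DMSO was −0.06 ± 0.057 (SE). Its upstream neighbours SNF8, a subunit of the ESCRT complex, and UBE2Z, a ubiquitin-conjugating enzyme, were at −0.19 ± 0.0652 and −0.15 ± 0.0589. ZNF652, a zinc finger repressor, was at 16.9 and 15.7 CPM in BRCA1+ DMSO, 14.3 and 13.1 in entinostat-treated BRCA1+, 24.2 and 27.6 in BRCA1-null DMSO, and 23.8 and 23.1 in BRCA1-null entinostat. All 4 BRCA1-null libraries were above all 4 BRCA1+ libraries, with a log2 difference of 0.67 ± 0.0949 in DMSO. Its span overlaps the noncoding LOC102724596, and reads of the pair could not be told apart by strand. Of the 6 members between IGF2BP1 and ZNF652, only PHOSPHO1 was tested, at 0.0 to 0.1 CPM in the DMSO libraries, so the edge cannot be placed more finely from these counts. PHB, a mitochondrial scaffold protein, followed at 163 and 159 CPM in BRCA1+ DMSO and 227 and 217 in BRCA1-null DMSO, a difference of 0.46 ± 0.0516.

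The distal edge was closer still. VMP1, a membrane protein of autophagosome formation, was at 56.4 and 56.3 CPM in BRCA1+ DMSO, 67.9 and 64.3 in entinostat-treated BRCA1+, 99.5 and 88.0 in BRCA1-null DMSO, and 117 and 106 in BRCA1-null entinostat. The lines did not overlap, and the log2 difference in DMSO was 0.73 ± 0.0796. TUBD1, or delta-tubulin, lies 18888 bases beyond the end of VMP1 and was at 12.5 and 12.6 CPM in BRCA1+ DMSO, 12.0 and 14.0 in entinostat-treated BRCA1+, 13.2 and 13.2 in BRCA1-null DMSO, and 13.9 and 14.8 in BRCA1-null entinostat. Its lines overlapped, with a difference of 0.07 ± 0.102. RPS6KB1, the ribosomal S6 kinase that shares the TUBD1 promoter interval shown above, was at −0.13 ± 0.0693, RNFT1 at −0.20 ± 0.0896 and HEATR6 at 0.05 ± 0.104. Thus 4 successive well-expressed genes beyond the edge lay between −0.20 and 0.07, after 4 inside it (DHX40, CLTC, PTRH2 and VMP1) between 0.38 and 0.79.

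**Figure D3:**
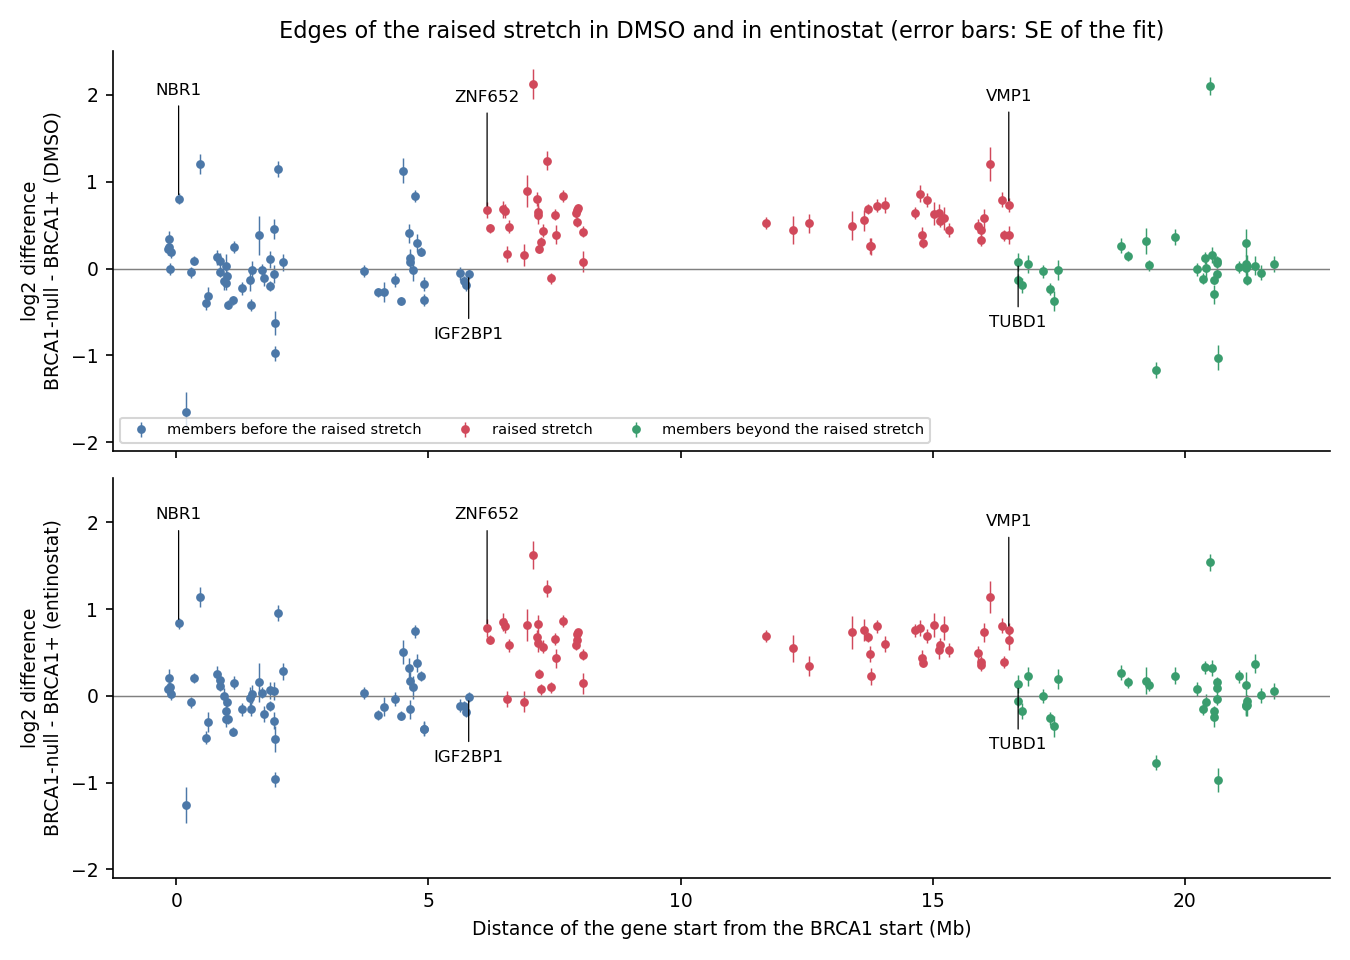
Well-expressed members by distance from the BRCA1 start (Mb), with the log2 difference between lines in DMSO (upper panel) and entinostat (lower panel), and error bars of 1 SE. ZNF652 and VMP1 close a block with medians of 0.56 and 0.65, and IGF2BP1 and TUBD1 outside it are near 0 in both panels, while NBR1 beside BRCA1 is near 0.8.

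Of the 55 well-expressed members of the stretch, 48 lay between 0.2 and 0.9 on the log2 scale, 4 below and 3 above. The interquartile range was 0.41 to 0.68, a width of 0.28, against 0.31 for well-expressed chromosome 17 genes of lower start and 1.09 for the 32 low-expression members of the stretch. For 47 of 55 (85.5%) all 4 BRCA1-null libraries exceeded all 4 BRCA1+ libraries, where 20.1% of all tested genes did. A gap of 3.6 Mb between UTP18 and TOM1L1 held only 4 members, 2 of them tested and neither well expressed, so the stretch was seen as a proximal and a distal block of genes. Over the genome, 10294 runs of 11 neighbouring well-expressed genes were described in the same way. A running median of at least 0.5 was found in 221 of them (2.15%), on 11 chromosomes, and 44 of these lay in the stretch. Neighbouring runs share genes, so they are not separate findings. Consecutive runs of at least 0.3 formed a series of 58 in the stretch (median 0.56). Series of like length were found on chromosome 15 (53 runs, median 0.44) and X (52 runs, median 0.61), and shorter ones on other chromosomes.

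The genes of the raised stretch do unlike things, and no listed group of roles held a gene called lower there. The edges of the stretch were placed on this same difference. Of its 87 tested genes 61 were called higher, where 21.1% of all tested genes were. Higher calls inside and mixed calls elsewhere were thus built into every list below and say nothing about a role. Among ribosome and translation genes, MRPL27, MRPS23 and UTP18 were all called higher, where 3 of the 15 listed members elsewhere were. MRPS23, a mitochondrial ribosomal protein, was at 39.5 and 40.2 CPM in BRCA1+ DMSO and 64.2 and 59.9 in BRCA1-null DMSO (0.64 ± 0.0721). RPL27, a cytosolic ribosomal protein encoded near BRCA1, was at 567 and 630 CPM in BRCA1+ DMSO and 599 and 592 in BRCA1-null DMSO (−0.01 ± 0.0649).

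Among splicing and RNA export genes, 7 of 7 tested genes in the stretch were called higher, with a median of 0.39, and 0 of 10 elsewhere, 2 of which were called lower. DHX40, an RNA helicase, had the largest difference, at 26.4 and 29.7 CPM in BRCA1+ DMSO and 48.9 and 48.4 in BRCA1-null DMSO (0.79 ± 0.0867). SRSF1, a splicing factor that directs exon choice, was at 213 and 220 CPM and at 267 and 263 CPM (0.29 ± 0.0514), a smaller difference with no overlap of lines. The coiled-body protein COIL (0.26), the U1-associated LUC7L3 (0.39) and the RNA-binding MSI2 (0.73) were also higher. DDX5, the helicase of highest level in this list, lies beyond the stretch and was at −0.13 ± 0.0669, and HELZ at −0.36 ± 0.104.

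Among chromatin and transcription genes, 5 of 7 in the stretch were called higher and 0 lower, against 4 higher and 5 lower of 20 elsewhere. SPOP, the substrate adaptor of a cullin ubiquitin ligase, was at 44.9 and 38.8 CPM in BRCA1+ DMSO and 69.2 and 64.7 in BRCA1-null DMSO (0.68 ± 0.098). KAT7, a histone acetyltransferase of replication origins, was at 49.1 and 50.5 CPM and at 70.8 and 68.5 CPM (0.48 ± 0.0719). MBTD1, a methyl-lysine reader of the NuA4 complex in the same block, was at 20.5 and 24.9 CPM and at 22.9 and 25.1 CPM, and its lines overlapped (0.08 ± 0.123). Elsewhere, NFE2L1, a stress-response transcription factor, was at 0.20 ± 0.0553, and BAHCC1, a chromatin reader, at −1.88 ± 0.243.

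Among kinases, phosphatases and signalling genes, 5 of 6 in the stretch were called higher, against 4 higher and 7 lower of 24 elsewhere. NME2, a nucleoside diphosphate kinase, was at 341 and 335 CPM in BRCA1+ DMSO, 313 and 316 in entinostat-treated BRCA1+, 548 and 546 in BRCA1-null DMSO, and 522 and 521 in BRCA1-null entinostat (0.69 ± 0.0447 in DMSO). Its neighbour and paralog NME1 was at 0.54 ± 0.0599. Both overlap the readthrough gene NME1-NME2, so the split of reads among the 3 is uncertain. MAP2K6, a kinase of the p38 pathway far beyond the stretch, was at −0.76 ± 0.229.

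Among ubiquitin and proteasome genes, RNF43, TRIM25 and TRIM37 lay in the stretch and all 3 were called higher, against 4 higher and 5 lower of 19 elsewhere. TRIM25, which ubiquitinates the RNA sensor RIG-I, was at 97.9 and 98.7 CPM in BRCA1+ DMSO, 94.6 and 95.0 in entinostat-treated BRCA1+, 164 and 153 in BRCA1-null DMSO, and 150 and 154 in BRCA1-null entinostat (0.69 ± 0.0568 in DMSO). It was also the 1 gene of the innate immune list inside the stretch. Of the 10 innate immune genes elsewhere, 5 were called higher and 1 lower: TBKBP1, an adaptor of TBK1, had the largest difference (1.13 ± 0.144), LGALS3BP, a secreted glycoprotein, was at 0.35 ± 0.0644, and SECTM1, an interferon-inducible membrane protein, was lower (−0.99 ± 0.252).

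Among vesicle traffic and cytoskeleton genes, 6 of 6 in the stretch were called higher, against 5 higher and 5 lower of 22 elsewhere. CLTC, the clathrin heavy chain, was at 465 and 514 CPM in BRCA1+ DMSO and 648 and 630 in BRCA1-null DMSO (0.38 ± 0.0651). SPAG9, a scaffold of JNK signalling on motor proteins, was at 0.64 ± 0.0609, AKAP1, a mitochondrial anchor of protein kinase A, at 0.72 ± 0.0731, and TOM1L1, an endosomal adaptor, at 0.53 ± 0.0708. ACTG1, cytoplasmic gamma-actin near the end of the arm, was lower, at 3900 and 4080 CPM in BRCA1+ DMSO and 3090 and 3160 in BRCA1-null DMSO (−0.35 ± 0.0481).

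Among cell division and nuclear transport genes, 3 of 4 in the stretch were called higher, against 1 higher and 2 lower of 15 elsewhere. EME1, a subunit of a structure-specific DNA nuclease whose span overlaps LRRC59, was at 0.66 ± 0.101, SKA2, of the kinetochore, at 0.33 ± 0.064, and PRR11, which shares its promoter region with SKA2, at 0.44 ± 0.0741. KPNB1, importin beta, lies before the stretch and was lower, at 674 and 668 CPM and at 532 and 504 CPM (−0.37 ± 0.0492). HN1 beyond it was at −0.47 ± 0.0626. Among metabolism and solute transport genes, 3 of 4 in the stretch were called higher, against 7 higher and 8 lower of 30 elsewhere. SLC25A39, a mitochondrial glutathione carrier before the stretch, was lower (−0.37 ± 0.0545), and CA4 was at or near 0 counts in most libraries, so no fold is given. Of 26 members listed as genes of other tissues, 7 were tested, and EPX, of eosinophils, was the only one called, at 0.125 and 0.261 CPM in BRCA1+ DMSO and 0.659 and 0.405 in BRCA1-null DMSO.

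Some genes inside the stretch did not follow it. ABCC3, a drug and bile salt transporter, was at 65.0 and 64.6 CPM in BRCA1+ DMSO, 85.1 and 89.5 in entinostat-treated BRCA1+, 57.7 and 62.1 in BRCA1-null DMSO, and 95.7 and 91.7 in BRCA1-null entinostat. It was the 1 well-expressed gene of the stretch with a negative value in DMSO (−0.11 ± 0.0641), while in entinostat it was at 0.10 ± 0.0629. FAM117A (0.17 ± 0.091) and PDK2, a kinase of pyruvate dehydrogenase (0.15 ± 0.123), were in DMSO also below 0.2. DLX3, a homeobox gene of low level, was the 1 member of the stretch called lower, at 0.875 and 0.632 CPM in BRCA1+ DMSO and 0.0879 and 0.0736 in BRCA1-null DMSO (−3.17 ± 0.54). At the other extreme, SAMD14 was at 0.175 and 0.153 CPM in BRCA1+ DMSO and 3.05 and 3.68 in BRCA1-null DMSO (4.35 ± 0.37). Its BRCA1+ DMSO values were 7 counts in each library, so the size of this difference is uncertain. TMEM92, a membrane protein of unsettled role, was at 5.88 and 4.44 CPM and at 23.3 and 21.6 CPM (2.13 ± 0.172), SPATA20 at 1.24 ± 0.104, and YPEL2 at 1.21 ± 0.196. Of the genes that the rule left out by name, the 6 tested ones inside the stretch were all above 0, with a median of 0.85. The 19 tested before it had a median of 0.46 (6 called higher, 3 lower), with HOXB2 at 1.38 and HOXB9 at 2.84, both of low level and chosen after their values were seen, and the 15 beyond it had a median of −0.11 (5 higher, 3 lower).

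**Figure D4:**
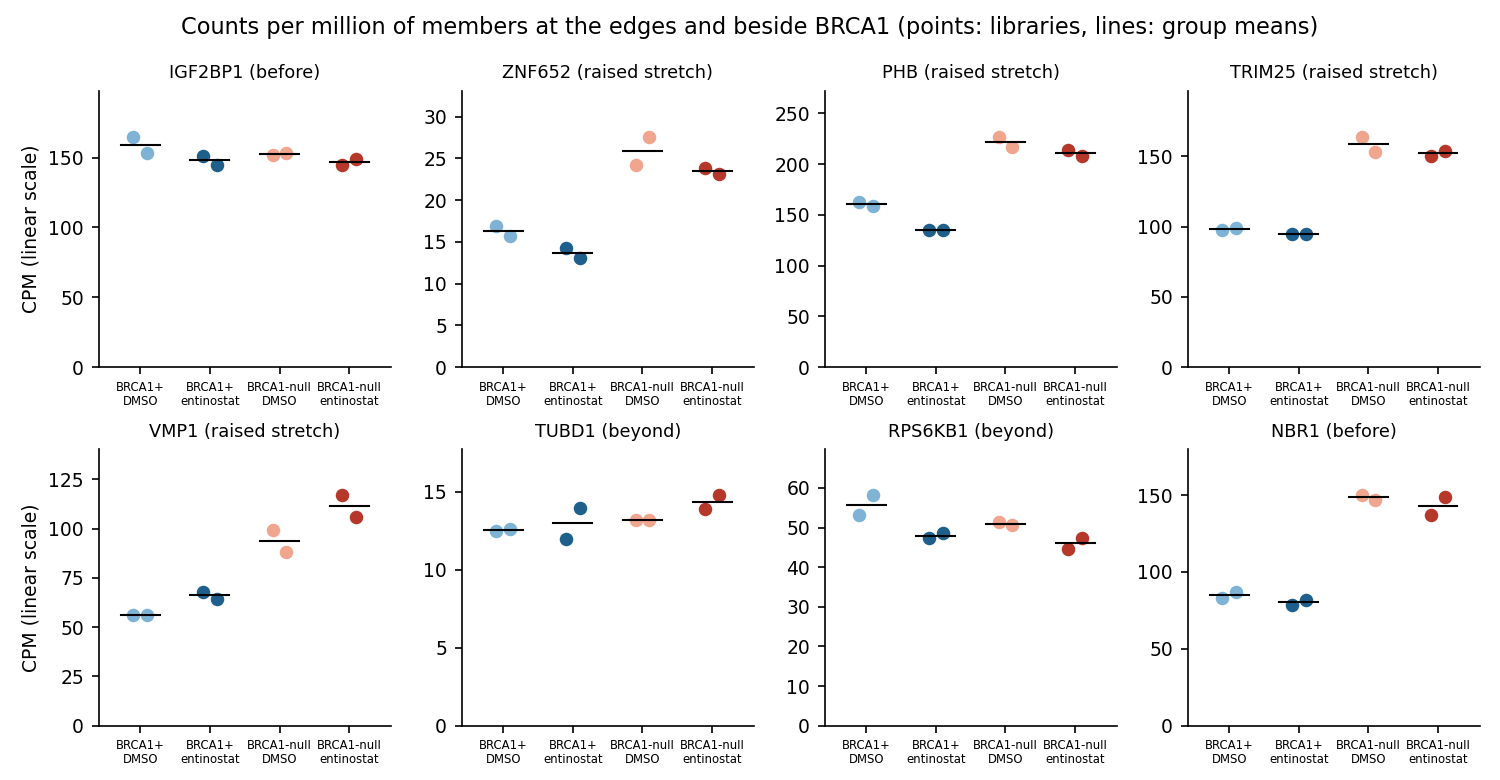
CPM of 8 members on linear axes that start at 0, with 1 point per library and a line at each group mean (2 libraries a group). ZNF652, PHB, TRIM25 and VMP1 inside the stretch, and NBR1 beside BRCA1, are higher in all BRCA1-null libraries, while IGF2BP1, TUBD1 and RPS6KB1 overlap between lines.

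Around BRCA1 itself the genes were mixed. Of the 14 listed neighbours, all tested, 5 were called higher and 2 lower in DMSO, with a median of 0.21. NBR1, the autophagy receptor, was at 83.2 and 86.7 CPM in BRCA1+ DMSO, 78.3 and 82.0 in entinostat-treated BRCA1+, 150 and 147 in BRCA1-null DMSO, and 137 and 149 in BRCA1-null entinostat. The lines were far apart, with log2 differences of 0.80 ± 0.0624 in DMSO and 0.83 ± 0.063 in entinostat. NBR2, between BRCA1 and NBR1, was at 1.95 and 2.44 CPM and at 3.63 and 3.61 CPM in DMSO (0.71 ± 0.205). TMEM106A, just beyond NBR1 and of unsettled role, was at 3.08 and 3.33 CPM and at 4.68 and 4.91 CPM (0.58 ± 0.157). From BRCA1 outwards, NBR2, NBR1 and TMEM106A follow on the plus strand. On the other side of BRCA1, VAT1 was at 0.20 ± 0.0756, IFI35, an interferon-induced gene, at 0.48 ± 0.174, and RPL27 at −0.01.

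Further from BRCA1, DHX8, a splicing helicase (−0.05 ± 0.0632), and ETV4, an ETS transcription factor (0.09 ± 0.0547), were near 0. DUSP3, a phosphatase of MAP kinases, was lower (−0.40 ± 0.0741). RUNDC1 was at 0.34 ± 0.0973. At the 41 Mb limit, the 5 tested genes just inside were AOC3 (0.30), G6PC (0.44), AARSD1 (0.23), PTGES3L-AARSD1 (0.24) and PTGES3L (1.42), and the 5 just outside were AOC2 (0.47), PSME3 (−0.07), MIR6781 (0.01), BECN1 (0.35) and CNTD1 (0.42). AARSD1, PTGES3L and their readthrough overlap, so their values are not separate measurements.

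Beyond the stretch, large differences went in both directions. LIMD2, a LIM domain protein whose span overlaps MAP3K3, was at 6.0 and 5.93 CPM in BRCA1+ DMSO, 9.02 and 7.93 in entinostat-treated BRCA1+, 24.4 and 26.6 in BRCA1-null DMSO, and 24.8 and 24.1 in BRCA1-null entinostat (2.10 ± 0.103 in DMSO). SPHK1, sphingosine kinase, was at 19.0 and 18.5 CPM and at 52.5 and 72.4 CPM in DMSO (1.74 ± 0.163), and MGAT5B, a glycosyltransferase, was at 1.32 ± 0.128. CYGB, or cytoglobin, was at 116 and 129 CPM in BRCA1+ DMSO and 20.6 and 18.4 in BRCA1-null DMSO (−2.65 ± 0.107). PRCD, on the opposite strand, overlaps CYGB and had a like value (−2.43 ± 0.136), so the pair cannot be told apart without strand. MRC2, an endocytic collagen receptor, was at 56.8 and 50.5 CPM and at 24.4 and 23.3 CPM (−1.17 ± 0.0906), and the pseudogene TCAM1P at −1.03 ± 0.148.

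The line difference was also present in the entinostat libraries, which use none of the DMSO libraries. Whether the choice of the members used them is not known, so they too are described only. Of all tested genes, 39.4% were called. The median of the 464 members was 0.15, with 129 called higher and 54 lower. In the raised stretch the median was 0.64, with 57 called higher and 2 lower, against 18 and 16 before it and 54 and 36 beyond it. Both treatments called 148 members with the same sign and 0 with opposite signs, and 55 of the 87 in the stretch were called higher in both. How many of all tested genes were called in both treatments was not counted, so these counts are not read as a trait of the members. PHB was at 135 and 135 CPM in entinostat-treated BRCA1+ cells and 214 and 208 in entinostat-treated BRCA1-null cells (0.65 ± 0.0522), and SPOP at 38.1 and 32.7 CPM and 66.5 and 60.5 CPM (0.85 ± 0.101).

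The effect of entinostat within each line is another contrast than the one the members were chosen from, and it was tested. It shares its DMSO libraries with that contrast. In BRCA1+ cells, 41 members rose and 34 fell (16.2% of 464), where 14.1% of all tested genes passed, 8.15% with a rise and 6.0% with a fall. With upper-quartile factors in place of TMM, 46 members rose and 18 fell. Of all 17714 tested genes, 13.7% passed with those factors, 1753 with a rise and 665 with a fall. In BRCA1-null cells, 35 rose and 27 fell (13.4%), where 10.8% of all tested genes passed, 7.57% with a rise and 3.19% with a fall. In the raised stretch 10 rose and 4 fell in BRCA1+ cells, and 8 rose and 3 fell in BRCA1-null cells, which is 16.1% and 12.6% of its 87 tested genes. The median of its well-expressed genes was −0.03 in BRCA1+ and −0.02 in BRCA1-null cells. Of the members called, 39 were called in both lines, all with the same sign, which is 52.0% of the BRCA1+ calls and 62.9% of the BRCA1-null calls. The same shares over all tested genes were not counted. Leaving out 1 library leaves 1 in its group, so lost power and dependence on that library cannot be told apart. The counts of calls were then lower in every case. Without 1 BRCA1+ library they were 42 (DMSO 1), 25 (DMSO 2), 25 (entinostat 1) and 24 (entinostat 2) in BRCA1+ cells. Without 1 BRCA1-null library they were 37 (DMSO 1), 14 (DMSO 2), 8 (entinostat 1) and 38 (entinostat 2) in BRCA1-null cells, and without BRCA1+ entinostat 1 or 2, which share the estimate of spread, 39 each.

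Among called members that averaged at least 1 in log2 CPM, SAMD14 had the largest rise in both lines. In BRCA1+ DMSO it had only 7 counts in each library, near the limit of about 3 counts, so the size of its rise there is uncertain. It went from 0.175 and 0.153 CPM to 1.7 and 1.06 in BRCA1+ cells and from 3.05 and 3.68 CPM to 10.6 and 10.1 in BRCA1-null cells. The log2 changes were 3.00 ± 0.48 (edgeR adjusted p = 0.00558) and 1.61 ± 0.154 (edgeR adjusted p = 0.0012). SAMD14 overlaps PDK2, which did not pass the test in either line. FAM171A2, a membrane protein before the stretch, rose from 4.55 and 3.55 CPM to 14.4 and 15.1 in BRCA1+ cells (1.87 ± 0.169, edgeR adjusted p = 0.000456) and from 3.45 and 3.55 CPM to 7.32 and 9.82 in BRCA1-null cells (1.28 ± 0.179, edgeR adjusted p = 0.00431). RGS9, a regulator of G protein signalling known from retina and striatum, rose by 2.02 ± 0.302 in BRCA1+ and by 0.89 ± 0.235 in BRCA1-null cells. PPM1E, a phosphatase of brain whose span overlaps TRIM37, rose in BRCA1+ cells (2.10 ± 0.307, edgeR adjusted p = 0.00376) and was at 0.63 ± 0.201 in BRCA1-null cells (edgeR adjusted p = 0.079). The noncoding LOC100507002 rose in both lines, by 1.39 ± 0.177 and 0.97 ± 0.137. In BRCA1-null cells TMC8, a transmembrane channel-like gene that overlaps TMC6, rose by 1.59 ± 0.181, and SECTM1 by 1.32 ± 0.243.

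NOG, or noggin, a secreted antagonist of bone morphogenetic proteins, had the largest fall in both lines over the same level. It went from 60.4 and 41.0 CPM to 25.8 and 19.9 in BRCA1+ cells (−1.16 ± 0.185, edgeR adjusted p = 0.00555) and from 71.3 and 71.2 CPM to 34.3 and 40.9 in BRCA1-null cells (−0.92 ± 0.172, edgeR adjusted p = 0.0128). LRRC45, a centrosome linker protein, fell in both lines, by 0.55 and 0.52 on the log2 scale. In BRCA1+ cells TNRC6C, of the microRNA silencing complex (−0.97 ± 0.249), CBX8, a Polycomb reader (−0.56 ± 0.14), and TEN1, a telomere capping protein (−0.45 ± 0.121), also fell. In BRCA1-null cells LOC101928514 (−0.85 ± 0.201), SPHK1 (−0.57 ± 0.151) and C17orf70, of the Fanconi anaemia core complex (−0.54 ± 0.112), fell. By role, 5 of 27 chromatin genes fell and 0 rose in BRCA1+ cells, and 3 fell and 0 rose in BRCA1-null cells. Of all tested genes, 6.0% and 3.19% fell. Of all well-expressed genes, 1012 of 10525 fell in BRCA1+ and 458 in BRCA1-null cells. Of well-expressed members, 32 of 286 and 23 of 286 fell. The role lists were not set against genes of like level, so their counts are not read as a trait of a role. KAT7, UBTF and BPTF fell in both lines, also with upper-quartile factors. With those factors 4 of the 27 fell in BRCA1+ cells, where 665 of all 17714 tested genes fell. Of 18 ribosome and translation genes, 4 fell and 0 rose in BRCA1+ cells (2 fell and 1 rose with upper-quartile factors), and 1 fell and 0 rose in BRCA1-null cells.

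**Figure D5:**
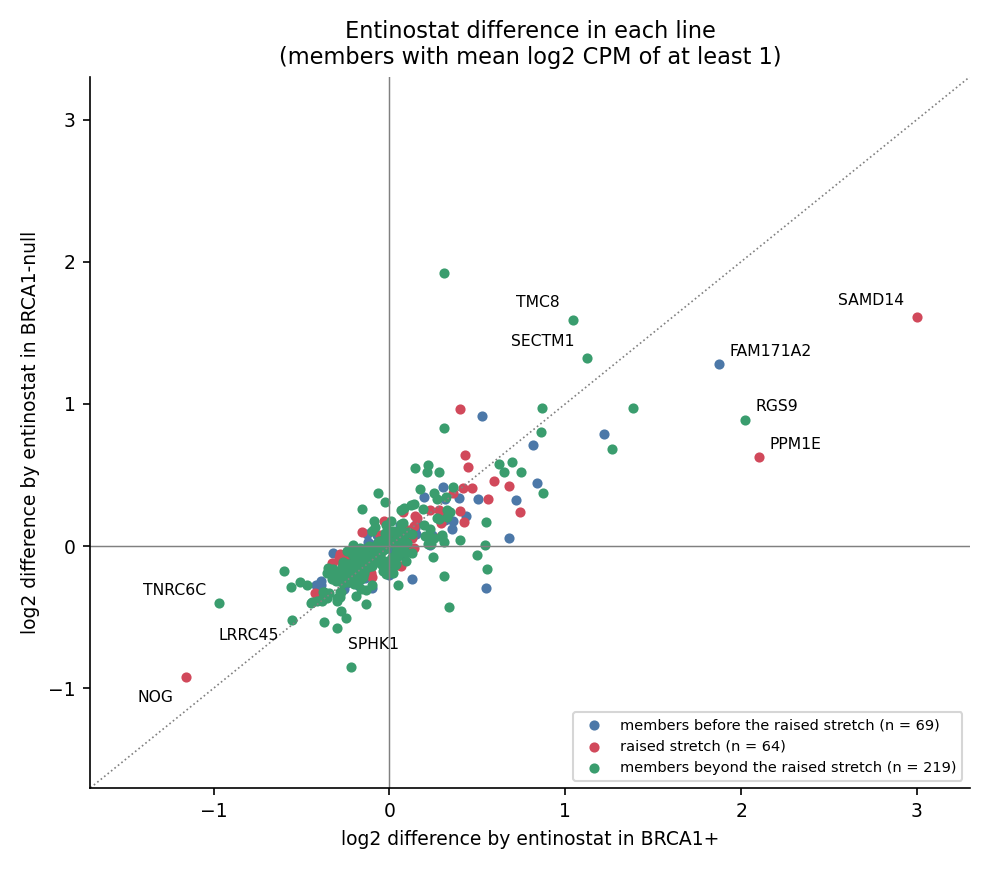
Each point is a member that averaged at least 1 in log2 CPM, with its log2 difference by entinostat in BRCA1+ cells (x axis) and in BRCA1-null cells (y axis); the dotted line marks equal values. Genes of the raised stretch lie among the others, SAMD14 is at 3.00 and 1.61, and NOG at −1.16 and −0.92.

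A difference in the response to entinostat between lines was tested as an interaction. No member was called by edgeR (percent called over all tested genes 0.0), and the smallest adjusted p among members was 0.967. DESeq2's Wald test also called 0. At an unadjusted p under 0.05 there were 28 members, 6 of them in the raised stretch, and 827 of all tested genes. The smallest unadjusted p-values in edgeR were those of PPM1E (0.00352), LIMD2 (0.00417) and BAIAP2-AS1 (0.006).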

How the data were processed

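RNA-seq libraries of UWB1.289 BRCA1-null and BRCA1+ cells in DMSO or entinostat were used (4 groups of 2). The authors deposited raw counts per gene from reads aligned with TopHat to hg19, counted per gene with NGSUtils per their methods; use of strand and of multiply mapped reads is not given in the sources used here. Counts of overlapping genes, paralogs and readthrough genes can therefore be shared. One row without a gene name held 0 counts and was left out, and 23 rows on chromosome 17 contigs, all at 0 counts, were not members (KANSL1, MAPT, NSF and PLEKHM1 among them).

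Counts were filtered with filterByExpr, scaled by TMM and fitted in edgeR 4.0.16 (R 4.3.3) by the quasi-likelihood method over all 8 libraries, with Benjamini-Hochberg adjustment over 17714 genes (two-sided, 4 residual degrees of freedom). CPM values are scaled the same way, and 3 counts correspond to 0.0552 to 0.0946 CPM. The common biological coefficient of variation was 9.04%. SE is approximate: it is the absolute log2 difference divided by the square root of the quasi-likelihood F statistic. The script was tested on simulated data. DESeq2 1.42.0 and other filters, scalings, left-out libraries and member limits were alternatives. Span overlap with the GENCODE lift to GRCh37 was found for 475 of 475 members whose symbol it holds.

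The members and role lists were chosen with earlier results of these data known, and the edges of the raised stretch after seeing them. Named genes were all tested listed BRCA1 neighbours; per other list those of highest level, largest and smallest difference; the 5 most positive and negative well-expressed members without overlap of lines; 5 on each side of the 41 Mb limit; the first and last tested; the 5 largest called changes by entinostat each way per line (mean log2 CPM of at least 1); and the 3 of smallest interaction p. Edge genes and other genes of the stretch were added after values were seen. Some members and sequences are not reported here.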

Additional observations from a re-analysis of the deposited data

Results flagged for a closer look

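For 4 named members both entinostat libraries lay on one side of both DMSO libraries in BRCA1+ cells and on the other side in BRCA1-null cells. TMEM106A was at 0.13 in BRCA1+ and −0.23 in BRCA1-null cells on the log2 scale, SMURF2 at −0.03 and 0.31, FLJ43681 at 0.16 and −0.81, and BAIAP2-AS1 at 0.56 and −0.16. In BRCA1+ cells SMURF2 was at 276 and 273 CPM in DMSO and at 267 and 272 CPM in entinostat, so its libraries were barely apart. The interaction test called none of these 4 genes, so a difference between the lines was not shown for them. How many of all tested genes were split in this way was not counted. With so few libraries in a group, such a split can arise from spread alone. The 4 genes are therefore not read as more than chance would give. FLJ43681 is the last tested member towards the end of the arm.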

How the results depend on the processing

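No named gene reversed a called direction under any alternative. Over 95 named genes, 65 of 1404 values for the lines in DMSO lost their call and 13 gained one, and in entinostat 21 lost and 15 gained. For 10 named genes in each line, entinostat calls were lost in 20 of 143 values (BRCA1+) and 21 of 145 (BRCA1-null). The raised stretch, taken apart after seeing the data, had a median of 0.606 in DMSO and 0.649 with upper-quartile factors. Leaving out each library in turn gave 0.56 to 0.622 with 51 to 62 calls, and 0.585 to 0.643 with 51 to 58 calls in entinostat.

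The median of all members in DMSO was 0.196. It was 0.239 with upper-quartile factors, 0.153 after the refit on the 286 well-expressed members with the other genes of that level, 0.211 from 44 Mb, 0.155 from 36 Mb and 0.136 without overlapping genes (134 calls, against 205), and leave-one-out gave 0.155 to 0.203 and 134 to 202 calls, the lowest without BRCA1+ DMSO 2. In entinostat (0.153) it was 0.114 after that refit, 0.135 with DESeq2, 0.174 from 44 Mb, 0.113 without overlapping genes, and 0.126 to 0.157 leave-one-out (116 to 176 calls, the lowest without BRCA1+ entinostat 2). Members outside the stretch had 0.1 in DMSO, 0.143 with upper-quartile factors, 0.079 after the refit (95 calls, against 143), and 0.081 to 0.121 leave-one-out (83 to 140 calls: 83 without BRCA1+ DMSO 2, 89 without BRCA1-null DMSO 2). In entinostat they had 0.078, 0.034 after the refit, and 0.041 to 0.08 leave-one-out (65 to 120 calls: 79 and 65 without BRCA1+ entinostat 1 and 2, against 124 with all libraries).

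The median entinostat effect in BRCA1+ cells was 0.007, 0.054 with upper-quartile factors, −0.011 after the refit (43 calls, against 75), and −0.015 to 0.013 leave-one-out (24 to 69 calls). In BRCA1-null cells it was −0.02, −0.045 after the refit (36 calls, against 62), −0.041 when only the groups compared were fitted (26 calls), −0.004 from 36 Mb, and −0.037 to −0.004 leave-one-out (8 to 52 calls). The interaction median was 0.001, −0.041 with upper-quartile factors, −0.029 after the refit, and −0.038 to 0.012 leave-one-out, with 0 calls throughout. Under upper-quartile factors the share of higher calls by entinostat in BRCA1+ cells over all genes was 72.5%, against 57.6%. The refit recomputed the TMM factors over 10527 genes, which moved the median gene by 0.06 in DMSO, 0.05 by entinostat in BRCA1+ cells and −0.05 in the interaction. Without it, the same members had medians of 0.09, −0.06 and 0.02. The cause of the other shifts was not tested.

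The labels do not say that a replicate number marks a shared culture or day. Deviations of same-numbered libraries correlated at 0.116 to 0.447. With the replicate number as a block, entinostat calls among members were 130 for BRCA1+, 60 of them higher and 70 lower (24.4% of all tested genes were then called), and 106 for BRCA1-null, 57 of them higher and 49 lower (20.6%). Of the 27 chromatin genes, 9 then fell and 1 rose in BRCA1+ cells, and 6 fell and 2 rose in BRCA1-null cells. Of all 17714 tested genes, 2024 and 1342 then fell. Members under about 3 counts were not detectable at this depth.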
